A study of Saccharomyces cerevisiae with 2 samples.

Results

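The succinate branch of the citric acid cycle is described here across 2 libraries of poly(A) RNA from the budding yeast Saccharomyces cerevisiae. Its 10 genes were chosen by their symbol: SDH1, SDH2, SDH3, SDH4, KGD1, KGD2, LSC1, LSC2, FUM1 and MDH1. All 10 were found among the 5659 genes listed. ZGR3 is a mutant derived from ZTW1, and the labels do not say which gene is changed. ZTW1 is the wild type parent, and both are bioethanol strains, with 1 library each. Cultures of 25 mL were started at an optical density (600 nm) of 0.05 in YPD, a rich medium of yeast extract (10 g/L), peptone (20 g/L) and glucose (20 g/L). RNA was taken at the entry into early stationary phase. Reads assigned to genes numbered 4.61 M (mega) in the ZGR3 library and 4.66 M in the ZTW1 library. Since each strain has 1 library, the differences given have no replicate check and no p-value. The intervals are exact 95% intervals of the read counts. They cover counting error alone and speak of these libraries, not of the strains in general.

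This arm of the cycle turns 2-oxoglutarate into oxaloacetate. The 2-oxoglutarate dehydrogenase complex makes succinyl-CoA, succinyl-CoA ligase releases succinate while making a nucleoside triphosphate, and succinate dehydrogenase oxidises succinate to fumarate. Succinate dehydrogenase is also complex II of the respiratory chain and passes its electrons to ubiquinone. Fumarase and malate dehydrogenase complete the route. In yeast, many of these genes are repressed by glucose and are induced by the Hap2/3/4/5 activator as cells turn to respiring ethanol.

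The 10 genes were strongly expressed in both strains. Levels are in RPKM, reads per kilobase of the listed coding length per M assigned reads, which scales each gene by its length. A trend with coding length between the libraries remained, and the ratios between 2 genes given below are not corrected for it. SDH3 was the highest of the 10 in both libraries, ranking 27 of all genes in ZGR3 and 12 in ZTW1. LSC1 was the lowest, ranking 416 in ZGR3 and 305 in ZTW1. Together the 10 genes took 2.09% of all reads in ZGR3 and 2.51% in ZTW1. Reads covered between 99.22% and 99.93% of the length of each gene in each library, so no member was counted from a short stretch alone.

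**Figure D1:**
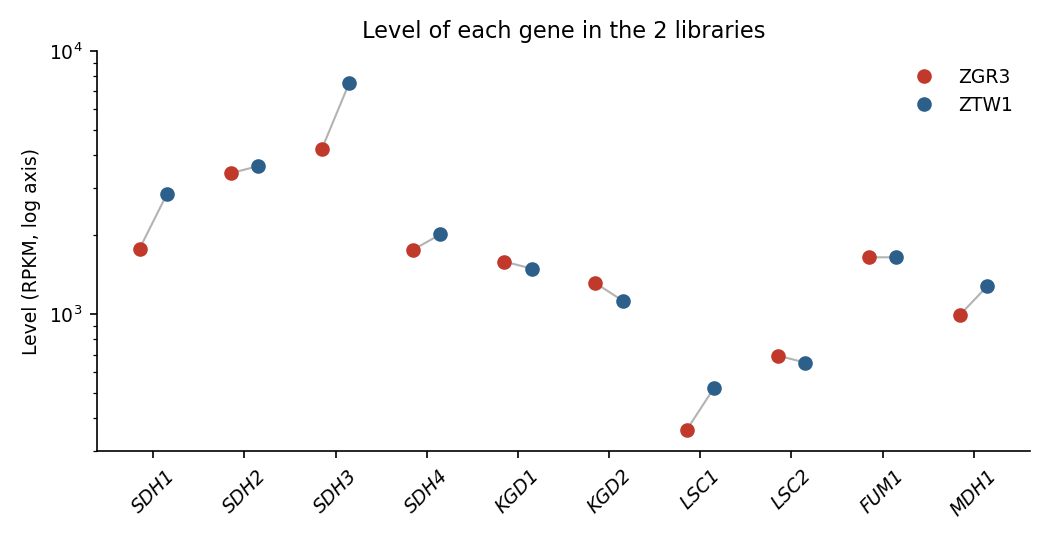
Level of each gene in RPKM on a log axis, with 1 point per library (ZGR3 left, ZTW1 right) joined by a grey line; counting intervals are smaller than the points for most genes and are not drawn. SDH1, SDH3, LSC1 and MDH1 show the steepest lines, each lower in ZGR3, while KGD1, KGD2 and LSC2 are slightly higher.

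Differences between the strains were uneven along the pathway. Complex II subunit genes were lower in ZGR3, by very different amounts, and so were LSC1 and MDH1, while both genes of 2-oxoglutarate dehydrogenase and LSC2 were slightly higher and FUM1 was level. The log2 ratio of ZGR3 over ZTW1, each RPKM raised by a pseudocount of 1, was below 0 for 7 of the 10 genes, with a median of −0.14. Over the 5532 genes whose RPKM averaged at least 1, the median was −0.02 and 51.95% lay below 0. None of the 10 passed 2-fold, which 1.92% of all genes did downward and 0.542% upward. At 1.5-fold 2 of the 10, SDH1 and SDH3, were lower, against 7.39% of all genes, and none was higher, against 3.63%. Of the 1244 genes averaging at least 100 RPKM, 4.98% were 1.5-fold lower and 3.7% higher, and 1.05% were 2-fold lower and 0.804% higher. The counting interval lay below equality for 6 of the 10 and above it for 3. It lay below equality for 35.5% and above it for 31.1% of the genes averaging at least 100 RPKM, and for 19.8% and 17.9% of all 5532 genes. At this depth a counting interval that leaves out equality is therefore common.

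**Figure D2:**
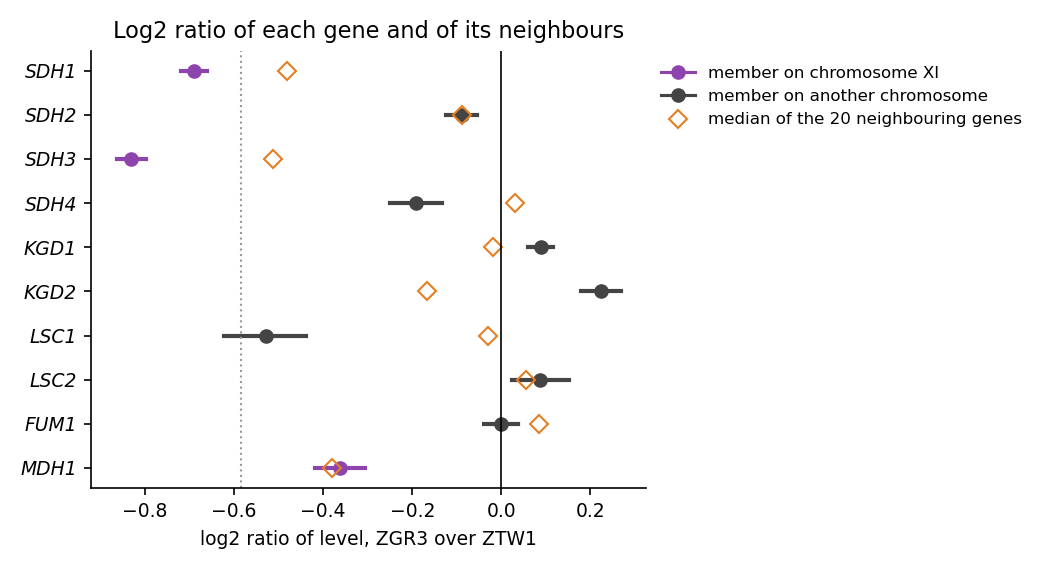
Log2 ratio of level, ZGR3 over ZTW1, for each gene (filled circle, with its counting interval as a bar) and the median log2 ratio of the 20 genes next to it on its chromosome (open diamond); the dotted line marks 1.5-fold lower. SDH1 (−0.69), SDH3 (−0.83) and MDH1 (−0.36), in purple, lie on chromosome XI, where the neighbours' medians are −0.48, −0.51 and −0.38.

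Succinate dehydrogenase is built of a flavoprotein (SDH1), an iron-sulfur protein (SDH2) and a pair of membrane anchor subunits (SDH3 and SDH4) that bind heme and ubiquinone. SDH1, with 15672 reads in ZGR3 and 25555 in ZTW1, had a level of 1768 RPKM in ZGR3 and 2851 RPKM in ZTW1. It was 1.61-fold lower in ZGR3 (1.58 to 1.65). SDH3, with 11668 reads in ZGR3 and 20983 in ZTW1, had a level of 4240 RPKM in ZGR3 and 7541 RPKM in ZTW1. In yeast its product also serves in the carrier translocase of the inner membrane. SDH3 was 1.78-fold lower in ZGR3 (1.74 to 1.82), the largest difference of the 10. In a bulk library, less RNA per cell and fewer cells holding it cannot be told apart.

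The other two subunit genes differed much less. SDH2 had 12645 reads and 3425 RPKM in ZGR3, against 13595 reads and 3642 RPKM in ZTW1. It was 1.06-fold lower (1.04 to 1.09). SDH4 had 4412 reads and 1753 RPKM in ZGR3, against 5096 reads and 2002 RPKM in ZTW1, and was 1.14-fold lower (1.10 to 1.19). These small differences shrank further once the trend with coding length was subtracted, the log2 ratio of SDH2 to −0.05, against −0.09 as measured, and that of SDH4 to −0.08, against −0.19. Relative to the median of its neighbours SDH2 was at −0.00068, whereas SDH4 was at −0.22, slightly further from 0 than as measured. The 4 subunit genes summed to 11185 RPKM in ZGR3 and 16036 RPKM in ZTW1, a ratio of 0.697.

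The balance between the subunit transcripts therefore differed between the libraries. The level of SDH3 was 1.24 times that of SDH2 in ZGR3 (1.21 to 1.27) and 2.07 times in ZTW1 (2.03 to 2.12). This ratio was 1.67-fold lower in ZGR3 (exact conditional interval 1.62 to 1.73). The level of SDH1 was 0.516 times that of SDH2 in ZGR3 (0.504 to 0.529) and 0.783 times in ZTW1 (0.767 to 0.799), a ratio 1.52-fold lower in ZGR3 (1.47 to 1.57). SDH1 and SDH3 kept closer to each other. SDH3 stood at 2.40 times SDH1 in ZGR3 (2.34 to 2.46) and 2.64 times in ZTW1 (2.60 to 2.69), which is 1.10-fold lower (1.07 to 1.14). SDH4 relative to SDH2 was 0.512 in ZGR3 (0.495 to 0.530) and 0.550 in ZTW1 (0.532 to 0.568). The highest subunit level, that of SDH3, was 2.42 times the lowest, that of SDH4, in ZGR3 and 3.77 times in ZTW1. The 4 levels thus lay closer together in the ZGR3 library.

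The pair of genes that differed most, SDH3 and SDH1, lie close together on the chromosome arm that also holds MDH1. In gene order 56 tested genes separate SDH1 from MDH1. LSC1, the next lowest of the 10, lies elsewhere. SDH1, SDH3 and MDH1 all lie on the left arm of chromosome XI, and the other 7 members are on 6 other chromosomes. In gene order 5 tested genes separate SDH1 from SDH3, and all 5 were below 0, with a median of −0.49. They were AVT3 (−0.49), RPT1 (−0.09), RPC25 (−0.52), LTV1 (−0.28) and MRP8 (−0.67). Of the 20 tested genes nearest to SDH1, 10 on each side and SDH3 among them, 20 had a log2 ratio below 0 and 3 lay below SDH1 itself. Around SDH3 19 of 20, SDH1 among them, were below 0 and 2 lay below SDH3. Most of these genes were also neighbours of SDH1, so the counts around SDH1 and SDH3 are not separate observations. Around MDH1 19 of 20 were below 0 and 10 lay below MDH1. The lower level of these members was thus shared by most of the genes beside them.

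The shift ran along much of the arm and shrank toward the centromere. A running median of 21 genes in gene order was −0.49 at SDH1, −0.36 at MDH1 and −0.13 at ATP7, which lies nearer the centromere. Of 208 tested genes of the left arm of chromosome XI, 182 lay below 0 (87.5%), with a median of −0.32, and 54 were at least 1.5-fold lower (25.96%). On the right arm 42 of 100 genes lay below 0, with a median of 0.06. Relative to the median of their neighbours, SDH1 was at −0.21, SDH3 at −0.32 and MDH1 at 0.02, so MDH1, which was lower as measured, turned to the other side of 0. The part of the chromosome in the members' own values was not tested beyond this subtraction. Without these 3 genes the median of the members was −0.0010, with 4 of 7 below 0.

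**Figure D3:**
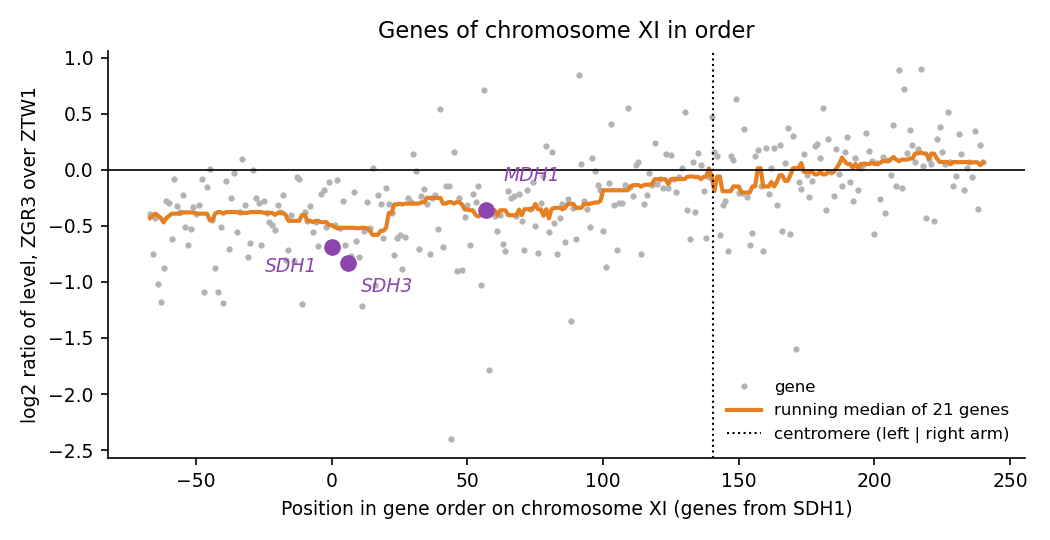
Log2 ratio of level, ZGR3 over ZTW1, for the 308 tested genes of chromosome XI in gene order, counted from SDH1 (grey points), with the running median of 21 genes (orange) and the boundary of the arms (dotted). SDH1, SDH3 and MDH1 (purple) sit in the left arm, whose median is −0.32 against 0.06 on the right arm. The running median rises toward 0 ahead of the boundary of the arms.

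MDH1 encodes the mitochondrial malate dehydrogenase, which makes oxaloacetate and NADH. It had 4593 reads and 991 RPKM in ZGR3, against 5968 reads and 1274 RPKM in ZTW1, and was 1.29-fold lower in ZGR3 (1.24 to 1.34). Its isozymes differed in direction. MDH2, the cytosolic enzyme, had a level of 2292 RPKM in ZGR3 and 2621 RPKM in ZTW1 (log2 ratio −0.19), whereas MDH3, the peroxisomal enzyme, had 713 RPKM in ZGR3 and 644 RPKM in ZTW1 (0.14).

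FUM1, whose single gene in yeast supplies fumarase to mitochondria and cytosol, had 11085 reads in ZGR3 and 11216 in ZTW1. Its levels were 1639 RPKM in ZGR3 and 1640 RPKM in ZTW1, a fold of 0.999 (0.973 to 1.03). The interval is narrow and holds equality.

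The 2-oxoglutarate dehydrogenase complex joins the decarboxylase KGD1, the transsuccinylase KGD2 and the dihydrolipoyl dehydrogenase LPD1, which it shares with other complexes. KGD1 had 22172 reads and 1580 RPKM in ZGR3, against 21090 reads and 1486 RPKM in ZTW1. It was 1.06-fold higher in ZGR3 (1.04 to 1.08), but its log2 ratio of 0.09 became −0.0043 once the trend with coding length was subtracted. KGD1 is the longest of the 10 genes, and longer genes ran higher in ZGR3 in general, with a running median of 0.09 at its length and of −0.11 at the length of SDH4, the shortest. KGD2 had 8400 reads and 1309 RPKM in ZGR3, against 7276 reads and 1121 RPKM in ZTW1, and was 1.17-fold higher (1.13 to 1.20). It was the highest log2 ratio of the members, 0.22, while its own neighbours on chromosome IV had a median of −0.17. LPD1 was at 844 RPKM in ZGR3 and 798 RPKM in ZTW1 (0.08), and YMR31, the small subunit that holds the dehydrogenase LPD1 in the complex, had 811 reads in both libraries. The level of KGD1 was 1.21 times that of KGD2 in ZGR3 (1.18 to 1.24) and 1.33 times in ZTW1 (1.29 to 1.36). As measured, none of these 4 genes was lower in ZGR3.

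Succinyl-CoA ligase pairs an alpha subunit (LSC1) with a beta subunit (LSC2), and here the genes of 1 enzyme parted. LSC1 had 1648 reads and 361 RPKM in ZGR3, against 2407 reads and 522 RPKM in ZTW1. It was 1.44-fold lower in ZGR3 (1.36 to 1.54). LSC2 had 4105 reads and 694 RPKM in ZGR3, against 3907 reads and 653 RPKM in ZTW1, and was 1.06-fold higher (1.02 to 1.11). The level of LSC1 was 0.521 times that of LSC2 in ZGR3 (0.491 to 0.551) and 0.799 times in ZTW1 (0.759 to 0.841), a ratio 1.53-fold lower in ZGR3 (1.42 to 1.66). LSC1 was the 1 member off chromosome XI with a difference of this size. Its 20 neighbours on chromosome XV had a median of −0.03, and 3 of them lay below it. After subtraction of the trend with coding length LSC1 was at −0.48.

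Yeast carries close homologs of 3 complex II subunits, and their transcripts went the other way. YJL045W, a homolog of the flavoprotein gene SDH1 named SDH9 in RefSeq, had 7366 reads and 839 RPKM in ZGR3, against 5197 reads and 585 RPKM in ZTW1. It was 1.43-fold higher in ZGR3 (1.38 to 1.49). SHH3, the homolog of SDH3, had 1351 reads and 496 RPKM in ZGR3, against 751 reads and 273 RPKM in ZTW1, and was 1.82-fold higher (1.66 to 1.99). SHH4, the homolog of SDH4, had 956 reads in ZGR3 and 854 in ZTW1 and was 1.13-fold higher (1.03 to 1.24). Thus all 3 homologs were higher where the standard subunit was lower, and each lies away from chromosome XI.

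The homologs therefore made up more of each pair in ZGR3. YJL045W held 32.2% of the RPKM it shares with SDH1 in ZGR3 (31.6 to 32.8) and 17.0% in ZTW1 (16.6 to 17.5). SHH3 held 10.5% of its pair in ZGR3 (9.95 to 11.0) and 3.49% in ZTW1 (3.25 to 3.74). SHH4 held 18.9% in ZGR3 (17.9 to 20.0) and 15.3% in ZTW1 (14.4 to 16.3). With the reads of each pair summed, the standard gene's deficit was smaller but kept its direction. The sum of SDH1 and YJL045W was 1.32-fold lower in ZGR3 (1.30 to 1.34), that of SDH3 and SHH3 1.65-fold lower (1.62 to 1.69) and that of SDH4 and SHH4 1.10-fold lower (1.06 to 1.14). Sharing of reads within a pair was not tested. The counts are of uniquely assigned reads, and reads covered at least 96.65% of each homolog.

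**Figure D4:**
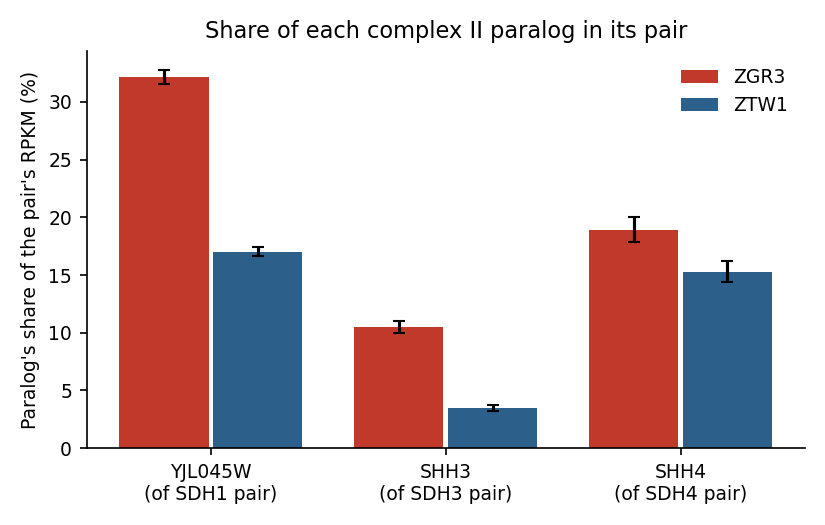
Share of each complex II homolog in the RPKM of its pair with the standard subunit gene, in percent, with ZGR3 left and ZTW1 right; error bars are 95% counting intervals. YJL045W held 32.2% in ZGR3 and 17.0% in ZTW1, and SHH3 10.5% in ZGR3 and 3.49% in ZTW1.

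Genes that assemble complex II were all below 0, though most are weakly read. Of 6 genes, the counting interval lay below equality for 3, and 4 stayed below 0 after subtraction of the length trend. The interval lay below equality for 19.8% of all 5532 genes and for 35.5% of those averaging at least 100 RPKM. As measured, 51.95% of the 5532 genes lay below 0. SDH6 (listed as YDR379C-A), an assembly factor of the iron-sulfur subunit, had 116 reads in ZGR3 and 185 in ZTW1 (log2 ratio −0.65). SDH7 (listed as ACN9), which acts at the same step, had 129 reads in ZGR3 and 197 in ZTW1 (−0.59). TCM62, a chaperone needed for the complex, had 154 reads in ZGR3 and 211 in ZTW1 (−0.42). SDH8 (listed as FMP21) was close to level at −0.01. It had 974 reads in ZGR3 and 992 in ZTW1, a fold of 0.993 (0.908 to 1.09). SDH5 (listed as EMI5), which attaches flavin to the SDH1 protein, was at −0.09. The flavin carrier gene FLX1 was at −0.58, with 21 reads in ZGR3 and 34 in ZTW1. Differences of SDH5 and FLX1 were not detectable at this depth.

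On the citrate side of the cycle the values spread around 0. Of 10 genes, 4 lay below 0 and the median was 0.09. CIT1, the mitochondrial citrate synthase, had a level of 3438 RPKM in ZGR3 and 2595 RPKM in ZTW1 (0.41), and its isozyme CIT3 had 625 RPKM in ZGR3 and 352 RPKM in ZTW1 (0.83). Aconitase, ACO1, was at 5459 RPKM in ZGR3 and 5564 RPKM in ZTW1 (−0.03). The isocitrate dehydrogenase genes parted slightly, IDH1 at −0.12 and IDH2 at 0.21. PYC1, a pyruvate carboxylase, was the lowest at −0.49. The pyruvate dehydrogenase genes, which are not among these 10, spread less. PDB1 was at −0.26, PDA1 at −0.10, LAT1 at −0.06 and PDX1 at 0.08.

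Enzymes and carriers that handle the same acids elsewhere showed mixed differences. Of 11 cytosolic, peroxisomal or otherwise alternative enzymes, 9 lay above 0, with a median of 0.14 and CIT2, the peroxisomal citrate synthase, the highest at 1.22. The fumarate reductases, which turn fumarate back into succinate, were higher in ZGR3, FRD1 (listed as YEL047C) with 957 reads in ZGR3 and 737 in ZTW1 (0.39), OSM1 with 535 reads in ZGR3 and 477 in ZTW1 (0.18). The interval of OSM1 just left out equality. Among 7 mitochondrial carriers, 5 lay below 0. SFC1, which exchanges succinate for fumarate, was at 792 RPKM in ZGR3 and 898 RPKM in ZTW1 (−0.18), DIC1, the dicarboxylate carrier, at 108 RPKM in ZGR3 and 84.0 RPKM in ZTW1 (0.36), and ODC2, a 2-oxodicarboxylate carrier, at −0.31 with 52 reads in ZGR3 and 66 in ZTW1.

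Regulators of these genes also lay on both sides of 0. Of 12, 6 lay below 0, with a median of 0.01. HAP4, the inducible activator subunit, had 1855 reads and 242 RPKM in ZGR3, against 2203 reads and 284 RPKM in ZTW1 (−0.23). HAP4 also lies on chromosome XI, where its neighbours had a median of −0.30. RTG1, of the retrograde pathway, was the highest at 0.34, from 107 reads in ZGR3 and 85 in ZTW1, with a fold of 1.27 (0.948 to 1.71).

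Complex II can be set beside the other respiratory complexes. All 9 nuclear complex III genes lay below 0, with a median of −0.31 and a range from −0.51 (RIP1) to −0.13 (QCR2). Of 9 complex IV genes 8 lay below 0, with a median of −0.33, from COX7 (−0.51) to COX5B (0.09). All 14 genes of ATP synthase and its inhibitor lay below 0, with a median of −0.30, from ATP20 (−0.79) to INH1 (−0.01). Most of these genes are short, though ATP1 has 1638 bp and ATP2 1536 bp. Subtraction of the length trend moved the medians to −0.18 for complex III, −0.21 for complex IV and −0.14 for ATP synthase. In that order 8 of 9, 7 of 9 and 12 of 14 genes stayed below 0. ATP1 was then at −0.34 and ATP2 at −0.32. QCR9 (0.05), COX13 (0.06), ATP17 (0.11) and INH1 (0.19) then lay above 0. The 4 complex II genes had a median of −0.44 as measured and −0.39 after the subtraction, but SDH2 (−0.09) and SDH4 (−0.19), off chromosome XI, lay nearer 0 than each of the 3 other medians, before and after it. Among the other dehydrogenases that feed the respiratory chain 3 of 5 lay below 0, with DLD1, for D-lactate, at −0.26 and NDE2, for external NADH, at 0.36. These differences between complexes were not tested, since there is 1 library per strain.

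**Figure D5:**
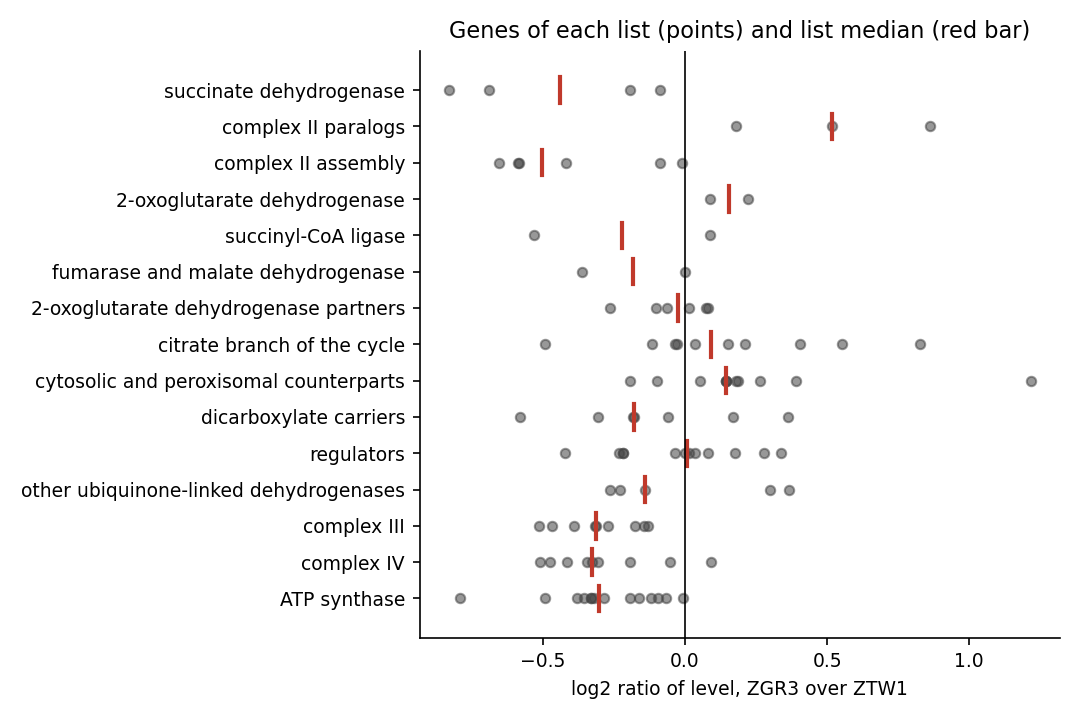
Log2 ratio of level, ZGR3 over ZTW1, for each gene (grey points) of 15 lists around the succinate branch, with each list's median as a red bar. The complex II homologs lie above 0, the complex II subunit and assembly genes below 0, and complexes III and IV and ATP synthase have medians between −0.33 and −0.30 as measured, without subtraction of the length trend. The row labelled other ubiquinone-linked dehydrogenases holds the 5 other dehydrogenases that feed the respiratory chain, and its label does not hold for DLD1.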

How the data were processed

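Poly(A) RNA was extracted with hot phenol and DNase treatment (30 min), per the labels' protocols. The deposited tables give counts of uniquely assigned reads per gene and, per the file headers, RPKM and the percent of each gene covered. Reads, length and total gave back all 11318 RPKM values of the authors. Reads were placed on sacCer2, as the submitters' processing notes give it. How reads were aligned, filtered and assigned by strand is not given in the sources used here. Overlapping and antisense genes therefore cannot be told apart. Listed lengths are all multiples of 3 and are called coding length.

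A gene without reads in a library was set to 0. Gene IDs were looked up in RefSeq R64 (5653 found, 6 not) to give names, chromosomes and the order of genes. Coordinates of R64 served only to order the genes, since the builds differ. No sequences were used, and the planned search of promoters for motifs was not run because no promoter sequences were at hand.

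Log2 ratios compare RPKM + 1 in ZGR3 with RPKM + 1 in ZTW1, over genes averaging at least 1 RPKM. The pseudocount shrinks the ratios of low genes. Folds are of reads per total reads, with 95% Clopper-Pearson intervals of ZGR3's share of the gene's reads. Reads carry no molecular identifiers. Ratios of 2 genes within a library carry the same kind of interval, and the change of such a ratio between libraries the exact conditional interval of the 2 by 2 table of reads. The trend with length is a running median of 401 genes. All 10 members are named. Of each other list the highest and lowest ratio at a mean RPKM of at least 10 are named, with fixed genes of the pathway. Members and lists were chosen with earlier results of these data known. The fold and its counting interval were tested on simulated reads that varied by counting error alone, and the running median on a simulated trend. The other steps were not tested in this way. Work was done with scipy 1.17.1 and pandas 2.3.3 under Python 3.11.15, and trimmed mean of M values scaling with edgeR 4.0.16.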

Additional observations from a re-analysis of the deposited data

How the results depend on the processing

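Other pseudocounts (0.1, 5 or none), centring, trimmed mean of M values scaling, reads per M reads and other filters on low values left the median of the members and the counts past 2-fold and 1.5-fold close to those given. The median of all genes moved by at most 0.02 under any scaling. The members' median, −0.14, became −0.066 after subtraction of the coding length trend, −0.044 after subtraction of the neighbouring genes and −0.0010 without the members on chromosome XI, an alternative added after seeing the data. The 2 members at least 1.5-fold lower became 1 after subtraction of the chromosome median and 0 after subtraction of the neighbours. KGD1 changed sign to −0.0043 after the length correction and MDH1 to 0.019 relative to its neighbours. Of 93 single-gene values under the alternatives, 74 stayed within the gene's counting interval and kept their sign, 14 moved outside it and kept their sign, and 5 changed sign. Besides KGD1 and MDH1 these were 3 values of FUM1, whose interval holds equality, at 0.015 when centred, 0.017 with trimmed mean of M values scaling and 0.0080 after the length correction. Summing reads with the homologs was also added after seeing the data. No paired analysis was possible because each strain has 1 library. Depth limits the assembly genes and carriers with few reads, not the 10 members.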
